A study of Mus musculus with 18 samples.

Results

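The genes described are the Hox genes of the mouse, taken as every gene whose symbol is Hox, a cluster letter from a to d and a number, with at least 1 probe that gave a value in 14 or more of 18 lymphomas. Of the 39 such genes in the RefSeq gene table, 34 were measured, among 18147 genes measured in all. Of the 34, 29 had a value in every lymphoma and 8 rested on more than 1 probe. Hoxa10, Hoxb1 and Hoxc13 had a probe that fell short of 14 values.

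The samples were 18 lymphomas from triple knock-out mice, without the DNA damage kinase Atm, the telomerase RNA mTerc and the tumour suppressor p53 (each -/-). Their common reference was thymus RNA from healthy p53 heterozygotes aged 3 weeks. Total RNA of each lymphoma was hybridised with that reference on 2-colour Agilent arrays with a dye swap, and 1 ratio per probe and lymphoma was used. The age and sex of the lymphoma mice are not given, nothing states that the 18 lymphomas came from separate mice, and no other genotype was measured, so the effects of genotype, tumour and tissue cannot be told apart. Each p-value thus measures the spread between samples that may be technical, and the reference counts as 1 control whose own spread is not in the test. Values are log2 ratios of lymphoma over thymus. That direction is likely rather than stated, because Atm and Terc are lower when the ratios are read so, and the log base of the deposited ratios was inferred to be 10. Each fold given depends on both.

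Hox genes encode transcription factors that give cells along the body axis their position. In mammals they lie in 4 clusters, and their order along the chromosome matches the order in which they are switched on along the embryo, low numbers towards the head and high numbers towards the tail, limbs and genitalia. Connective tissue cells of adults keep the Hox pattern of the body region they come from. Blood stem cells and early progenitors also express Hox genes, mainly of the a and b clusters, which are shut down as T cells mature in the thymus, and Hoxa genes stay on in a class of T cell leukaemia. Hox proteins bind DNA with cofactors of the Pbx and Meis families. The Hoxa genes lie on chromosome 6, Hoxb on 11, Hoxc on 15 and Hoxd on 2. Some neighbouring Hox genes share leading exons, and the sources used here do not place the probes within the genes.

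The promoters of 4 genes are printed because the results turn on them. Hoxd4, Hoxa7 and Hoxa2 were the members at least 2-fold lower in lymphoma, and Hoxd8 was far higher in lymphomas 14 and 7 than in the others. RefSeq promoters of build GRCm38.p6 were at hand for 20 of the 34 genes, each with 250 bases before and 50 after the start of the gene, 5′ to 3′ on the strand of the gene. Capitals mark matches, on either strand, to TGACAG (a Meis core), TGATTNAT (a joint Pbx and Hox site) and TTTATG (a core bound by the caudal factors Cdx). TTTATG was added after the sequences had been seen.
Hoxd4 (chr2:74721728-74722027, plus strand): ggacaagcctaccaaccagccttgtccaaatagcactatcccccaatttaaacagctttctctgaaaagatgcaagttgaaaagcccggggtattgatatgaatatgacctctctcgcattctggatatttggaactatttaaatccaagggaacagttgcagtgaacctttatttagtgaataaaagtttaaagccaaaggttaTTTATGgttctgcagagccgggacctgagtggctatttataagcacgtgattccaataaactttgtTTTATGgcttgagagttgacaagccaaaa
Hoxa7 (chr6:52218524-52218823, minus strand): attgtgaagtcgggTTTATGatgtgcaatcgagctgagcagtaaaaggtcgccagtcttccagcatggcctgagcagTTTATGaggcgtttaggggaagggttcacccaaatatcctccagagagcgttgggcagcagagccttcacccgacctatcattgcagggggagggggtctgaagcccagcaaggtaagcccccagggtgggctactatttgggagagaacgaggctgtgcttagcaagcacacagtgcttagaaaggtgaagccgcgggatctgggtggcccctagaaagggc
Hoxa2 (chr6:52164782-52165081, minus strand): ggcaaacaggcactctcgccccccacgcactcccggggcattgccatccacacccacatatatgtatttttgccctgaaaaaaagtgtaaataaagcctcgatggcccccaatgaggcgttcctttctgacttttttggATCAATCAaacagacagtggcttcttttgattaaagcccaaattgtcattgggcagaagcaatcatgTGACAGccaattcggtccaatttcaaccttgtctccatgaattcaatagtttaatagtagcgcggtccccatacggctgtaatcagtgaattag
Hoxd8 (chr2:74704365-74704664, plus strand): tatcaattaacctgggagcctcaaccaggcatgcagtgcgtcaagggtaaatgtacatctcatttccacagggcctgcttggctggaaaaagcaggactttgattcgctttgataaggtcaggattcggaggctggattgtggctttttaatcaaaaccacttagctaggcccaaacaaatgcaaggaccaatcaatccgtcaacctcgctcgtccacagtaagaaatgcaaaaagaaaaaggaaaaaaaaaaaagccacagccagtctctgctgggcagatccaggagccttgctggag
Hoxd4 and Hoxa7 each held 2 matches to TTTATG. Hoxa2 held 1 match to TGACAG and 1 to TGATTNAT, the second read on the other strand as ATCAATCA, and the Hoxd8 window held none of the motifs. None of the capitals overlap between motifs. TGACAG was in 2 of the 20 Hox promoters, those of Hoxa2 and Hoxa3, and in 19.2% of all 32851 promoters of this length. TGATTNAT was in 1 Hox promoter, that of Hoxa2, and in 3.22% of all promoters. TTTATG was in 5 Hox promoters (Hoxa7, Hoxb8, Hoxd3, Hoxd4 and Hoxd11) and in 11.9% of all promoters. CG pairs, the site of DNA methylation, numbered 4 in Hoxd4, 9 in Hoxa7, 9 in Hoxa2 and 6 in Hoxd8. The median was 14.5 CG pairs over the 20 Hox promoters and 7 over all promoters.

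Lymphoma 14 stood apart from its label. Its T cell markers (Cd3e, Cd3g, Zap70 and others) were below 0 for 8 of 8 measured genes with a mean log2 ratio of -3.61, against list means of -1.44 to 0.53 in the other 17 lymphomas. Its fibroblast markers (collagens, Dcn, Pdgfra and others) were above 0 for 11 of 11 genes with a mean of 3.84, against -2.51 to 1.23 in the other 17. Its endothelium markers were above 0 for 10 of 10 genes, with a mean of 2.83 against -2.01 to 0.48 in the other 17. Fewer cells of a type and less RNA per cell cannot be told apart in such bulk tissue. Lymphomas 7 and 12 differed in thymic epithelium markers (Foxn1, Krt5, Krt8 and others). The list mean was -0.65 in lymphoma 7 and 0.21 in lymphoma 12, against -4.50 to -2.59 in the other 16. Single genes of the list went both ways. In lymphoma 7, 5 of 12 were above 0, from Psmb11 at -4.54 to Krt5 at 2.62. In lymphoma 12, 8 of 12 were above 0, from Aire at -2.77 to Tbata at 1.49. Aire was at 2.02 in lymphoma 7, and Psmb11 at 1.30 in lymphoma 12. Results that rest on lymphomas 14 or 7 are given with and without them. Missing values made up 2.27% to 7.79% of the probes of each array, and array medians lay between -0.04 and 0.12. Precision is limited by the number of arrays. No spot intensities were used, so whether the Hox probes gave signal above background was not tested.

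Most Hox genes did not differ detectably from thymus. Of the 34, 14 passed limma's test at an adjusted p under 0.05 (41.2%), against 57.8% of all genes tested. Of these, 8 were higher in lymphoma (23.5%), against 29.9% of all genes, and 6 were lower (17.6%), against 27.9% of all genes. Called and at least 2-fold lower were 3 members, against 10.9% of all genes. The highest mean of any member was 0.87, so none was 2-fold higher, against 4.3% of all genes. Read in base 2, the deposited ratios would put 0 members at 2-fold. The median of the mean log2 ratios was 0.12 over the 34 Hox genes and 0.05 over all genes. Over all 18 lymphomas the Hox genes spread more, with a median SD of 0.67 against 0.53 over all genes. Part of this rests on lymphomas 7 and 14. Without them the SD was 0.85 for Hoxc9 (2.14 over all 18) and 0.44 for Hoxa9 (0.90), but 0.44 for Hoxa3 (0.42). The comparison of medians was not made without them. The members were not tested as a set, and these counts are a description.

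The calls lay in all 4 clusters. Of 9 measured Hoxa genes 2 were higher, 4 lower and 3 not called, and of 9 Hoxb genes 3 were higher, 1 lower and 5 not called. Of 7 Hoxc genes 1 was higher and 6 not called, and of 9 Hoxd genes 2 were higher, 1 lower and 6 not called. By paralogue number, the genes numbered 4 to 8 held 4 higher and 4 lower calls among 15. Those numbered 9 to 13 held 2 higher and 1 lower among 13, and those numbered 1 to 3 held 2 higher and 1 lower among 6. No test of these differences was made.

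**Figure D1:**
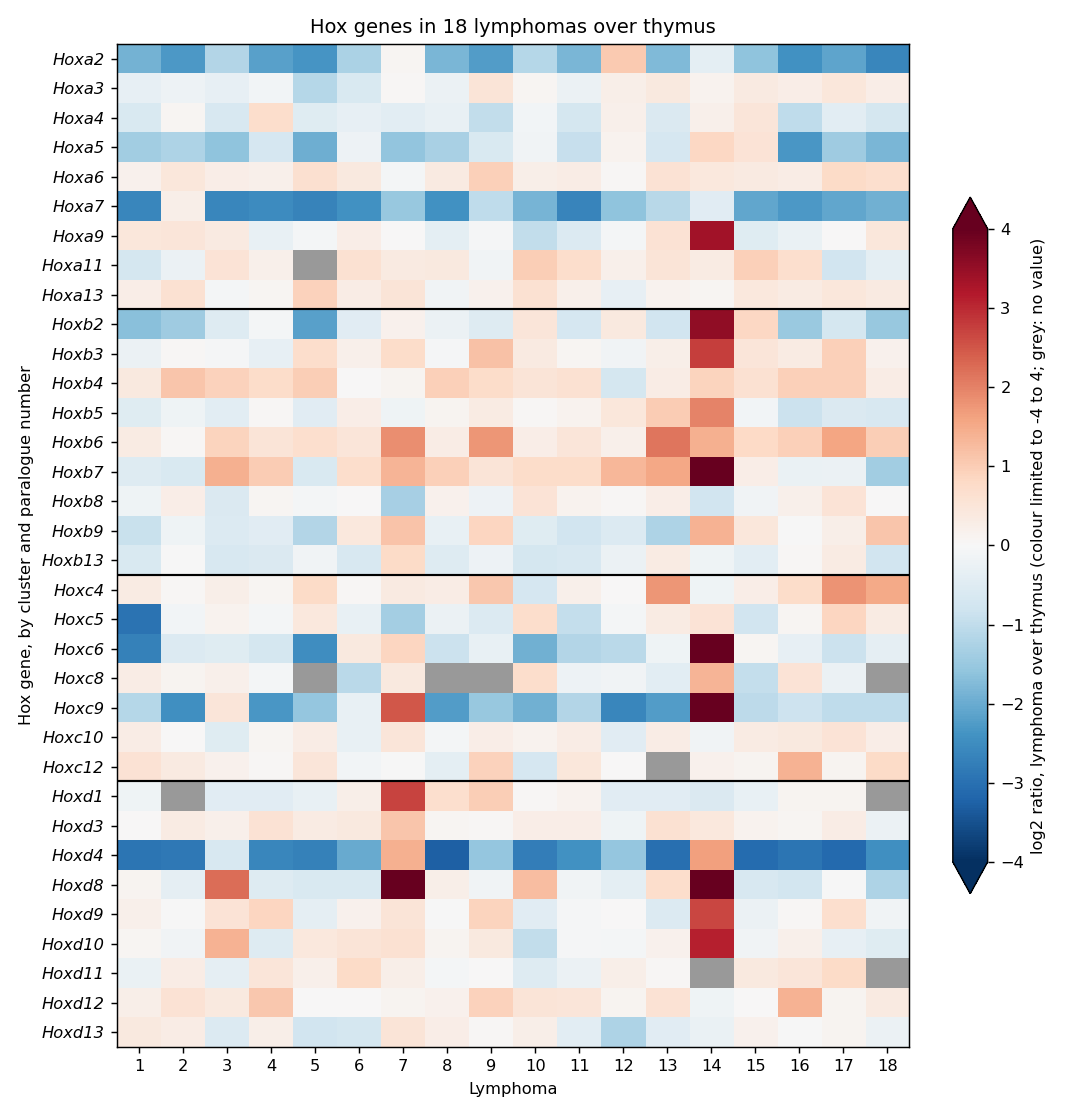
Log2 ratio of lymphoma over thymus for each of the 34 Hox genes (rows, ordered by cluster and number) in each of 18 lymphomas (columns), red above 0, blue below 0 and grey where no value was given. Hoxd4, Hoxa7 and Hoxa2 are blue in most columns, and column 14 holds the deepest reds, such as Hoxc9 at 6.26.

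Hoxd4 was the member lowest in lymphoma. It marks the border of the hindbrain and shapes the neck vertebrae in the mouse. Its log2 ratio ran from -3.25 in lymphoma 8 through a median of -2.66 to 1.63 in lymphoma 14. Lymphoma 7, at 1.42, was the only other one above 0, and the remaining 16 lay between -3.25 and -0.66. The mean was -2.05 ± 1.46 (SD, n = 18), 4.13-fold lower (limma adjusted p = 2.09e-05, below 0 in 16 of 18). Without lymphoma 14 the mean was -2.26, and without lymphomas 7 and 14 it was -2.49 ± 0.71 (SD, n = 16, limma adjusted p = 1.14e-09).

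Hoxa7, a blood progenitor gene that is also among those switched on in leukaemias with Mll fusions, was lower in nearly every lymphoma. Its log2 ratio ran from -2.67 in lymphoma 5 through a median of -2.08 to 0.22 in lymphoma 2. Lymphoma 2 was the single one above 0, and lymphoma 14 came next at -0.44. The mean was -1.87 ± 0.83 (SD, n = 18), 3.65-fold lower (limma adjusted p = 8.73e-08, below 0 in 17 of 18).

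Hoxa2, which patterns the second branchial arch, from which parts of the ear and the hyoid come, had a log2 ratio from -2.62 in lymphoma 18 through a median of -1.82 to 1.03 in lymphoma 12. Lymphoma 12 stood well above the rest, lymphoma 7 was close to 0 at 0.09, and the other 16 were below 0. These are the 2 lymphomas with the highest mean of the thymic epithelium markers, though single markers differed between them. The mean was -1.55 ± 0.96 (SD, n = 18), 2.93-fold lower (limma adjusted p = 4.57e-06, below 0 in 16 of 18). Over all 18 lymphomas the correlation of Hoxa2 with the mean of the thymic epithelium markers was r = 0.79 and rho = 0.32 (adjusted permutation p = 0.0124 and 0.471). Lymphomas 7 and 12 lie apart on the marker axis. Over the other 16 the correlation was r = 0.16 and rho = 0.03 (permutation p = 0.539 and 0.909, adjusted 0.898 and 0.951). The part of the thymic epithelium in the low Hoxa2 ratio was not tested.

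Hoxa5, needed for lung and rib cage development, was lower by less. Its log2 ratio ran from -2.34 in lymphoma 16 through a median of -1.08 to 0.81 in lymphoma 14, and lymphomas 14, 15 and 12 were above 0. The mean was -0.91 ± 0.88 (SD, n = 18), 1.88-fold lower (limma adjusted p = 0.000556, below 0 in 15 of 18), and without lymphoma 14 it was -1.01. The other 2 lower members changed little. Hoxa4, a gene of neck and trunk patterning, averaged -0.31 ± 0.48 (SD, n = 18, limma adjusted p = 0.0255, below 0 in 13). Hoxb13, expressed in prostate and hindgut, averaged -0.27 ± 0.43 (SD, n = 18, limma adjusted p = 0.0339, below 0 in 14). Leaving out lymphoma 9 or 16 took Hoxa4 past the threshold, to adjusted p of 0.0509 and 0.0518. Hoxb13 lost its call without any one of lymphomas 1, 3, 4, 6, 8, 10, 11, 15 and 18, with adjusted p up to 0.0648.

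**Figure D2:**
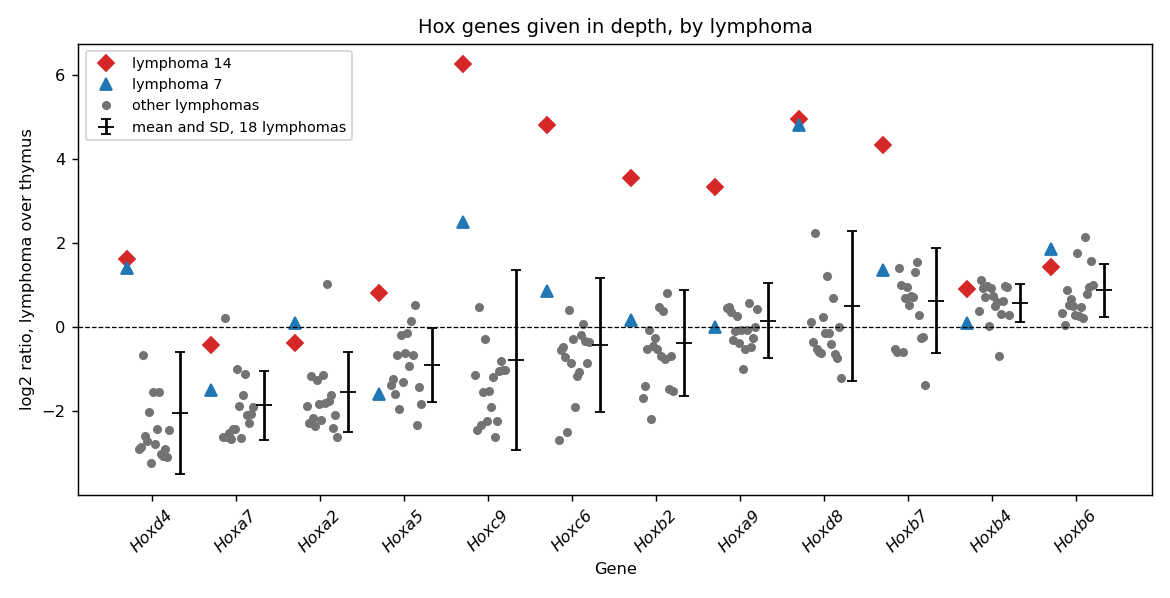
Log2 ratio of lymphoma over thymus (vertical axis) of 12 Hox genes in each lymphoma, with lymphoma 14 as red diamonds, lymphoma 7 as blue triangles, the other 16 as grey points, and the mean with its SD over all 18 beside them. In Hoxd4 the points of lymphomas 14 and 7, at 1.63 and 1.42, lie above all others, and in Hoxc9 lymphoma 14 lies at 6.26.

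The 8 members called higher had means from 0.27 to 0.87, so none reached 2-fold. Whether the signals behind these small ratios lay above background was not tested. Hoxb6, active in the lateral body wall of the embryo and in blood progenitors, was above 0 in 18 of 18 lymphomas, from 0.06 in lymphoma 2 through a median of 0.73 to 2.14 in lymphoma 13. Its mean was 0.87 ± 0.63 (SD, n = 18), 1.83-fold higher (limma adjusted p = 3.95e-05). Its 2 probes averaged 1.19 ± 1.23 and 0.55 ± 0.80, and each was above 0 in 15 of 18. They did not move together over the 18 lymphomas (r = -0.28, two-sided permutation p = 0.27, n = 18).

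Hoxb4, which expands blood stem cells when overexpressed, averaged 0.58 ± 0.45 (SD, n = 18, limma adjusted p = 0.000146) and was above 0 in 17 of 18. Its lowest value was -0.69, in lymphoma 12, and its highest 1.12, in lymphoma 2. Hoxc4, expressed in lymphocytes, averaged 0.49 ± 0.67 (SD, n = 18, limma adjusted p = 0.0105), with lymphomas 17 and 13 highest at 1.78 and 1.77. Hoxb3, a gene of the hindbrain and of blood progenitors, averaged 0.41 ± 0.72 (SD, n = 18, limma adjusted p = 0.0346). Lymphoma 14 was highest at 2.77. Without it the mean was 0.28 (adjusted p = 0.0281), and without any one of lymphomas 5, 7, 9 and 17 the adjusted p lay between 0.0521 and 0.0648, past the threshold.

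The other 4 higher members had small mean ratios. Hoxa6 averaged 0.39 ± 0.26 (SD, n = 18, above 0 in 17), and Hoxd12, a limb and genital gene, averaged 0.39 ± 0.41 (above 0 in 17). Hoxa13, also of limbs and genitalia, averaged 0.27 ± 0.30 (above 0 in 15), and Hoxd3, which shapes the first neck vertebrae, averaged 0.27 ± 0.31 (above 0 in 16). Their limma adjusted p lay between 0.000122 and 0.00791. Hoxa13 and Hoxd3 are means of 2 probes each, and the single probes were less even. Those of Hoxa13 were above 0 in 12 of 18 and 11 of 17 lymphomas, and those of Hoxd3 in 14 of 18 and 10 of 15. In lymphoma 14 Hoxa6, Hoxd3 and Hoxa13 lay at 0.08, 0.17 and -0.21 from the median of the other 17, while Hoxd12 was at -0.16, the lowest of the 18 and the single value below 0.

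For 8 genes, 2 probes could be compared. Correlation between the 2 probes of a gene, over 15 to 18 lymphomas, ran from r = -0.28 in Hoxb6 to 0.36 in Hoxb9, and none of the 8 passed a two-sided permutation test (adjusted p from 0.389 to 0.575 over the 8). Spearman's rho ran from -0.39 to 0.45 (adjusted permutation p from 0.401 to 0.66), and without the 2 lymphomas farthest from the median r ran from -0.37 to 0.42. The 2 probes of Hoxa4 averaged -0.68 and 0.09, and those of Hoxa3 averaged -0.45 and 0.40. For Hoxa3, which is needed for the thymus itself to form, the 2 probes thus lay on opposite sides of 0. Its gene mean was -0.02 ± 0.42 (SD, n = 18, limma adjusted p = 0.862, 95% confidence interval -0.23 to 0.19), from -1.13 in lymphoma 5 through 0.05 to 0.53 in lymphoma 9. With 1 probe per gene it was -0.45 (adjusted p = 0.0285). Both probes had 18 values, and that setting took the one with the lower probe number. The probe not taken averaged 0.40 ± 0.51 and was above 0 in 15 of 18. Both probe means were above 0 in Hoxb6, Hoxa13 (0.34 and 0.22), Hoxd3 (0.21 and 0.33), Hoxd9 (0.09 and 0.48) and Hoxc10 (0.20 and 0.05). In Hoxb9 they were 0.15 and -0.20.

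Several Hox genes differed more between lymphomas than from thymus. Hoxc9, which sets the identity of motor neurons at chest level, had the largest SD of the 34, and 0.981% of all genes had a larger one. Its log2 ratio ran from -2.62 in lymphoma 12 through a median of -1.16 to 6.26 in lymphoma 14. Lymphoma 7 was next at 2.49, lymphoma 3 was at 0.47, and the other 15 were below 0. The mean was -0.78 ± 2.14 (SD, n = 18, limma adjusted p = 0.157, 95% confidence interval -1.76 to 0.19). Without lymphoma 14 it was -1.20 ± 1.26 (n = 17, limma adjusted p = 0.00128). Without lymphomas 7 and 14 it was -1.43 ± 0.85 (n = 16, limma adjusted p = 6.38e-06).

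Hoxd8, a gene of the trunk, was highest in the same pair. Its log2 ratio ran from -1.22 in lymphoma 18 through a median of -0.14 to 4.97 in lymphoma 14, with lymphoma 7 at 4.82. The next highest was 2.24, in lymphoma 3. The mean was 0.50 ± 1.79 (SD, n = 18, limma adjusted p = 0.286), and without both lymphomas it was -0.05 ± 0.85 (n = 16).

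Hoxc6, active in forelimb-level motor neurons and the mammary gland, ran from -2.70 in lymphoma 1 through a median of -0.51 to 4.81 in lymphoma 14, and lymphoma 7 came next at 0.85. Lymphoma 14 stood far above the rest here, and the highest of the other 16 was 0.40. The mean was -0.44 ± 1.59 (SD, n = 18, limma adjusted p = 0.294), and without lymphoma 14 it was -0.74 ± 0.94 (n = 17, limma adjusted p = 0.0056). Hoxa9, the Hox gene best known from acute leukaemia, ran from -0.99 in lymphoma 10 through a median of -0.03 to 3.35 in lymphoma 14, and the next highest was 0.58 in lymphoma 13. No lymphoma other than 14 thus had a Hoxa9 ratio of 2-fold. The mean was 0.15 ± 0.90 (SD, n = 18, limma adjusted p = 0.527), and without lymphoma 14 it was -0.03 ± 0.43 (n = 17, limma adjusted p = 0.8).

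Hoxb2 and Hoxb7 were singled out after their values had been seen. Hoxb2, a gene of the hindbrain and facial nerve, averaged -0.38 ± 1.27 (SD, n = 18, limma adjusted p = 0.253), with lymphoma 14 highest at 3.55 and lymphoma 15 next at 0.81. Without lymphoma 14 it averaged -0.61 ± 0.83 (n = 17, limma adjusted p = 0.00991). Hoxb7, active in the budding duct of the kidney, averaged 0.63 ± 1.25 (SD, n = 18, limma adjusted p = 0.0579), with lymphoma 14 highest at 4.33. Without lymphoma 14 it averaged 0.41 ± 0.87 (n = 17, limma adjusted p = 0.0821). Without any one of lymphomas 1, 2, 5 and 18 it averaged 0.69 to 0.74 and passed (limma adjusted p from 0.024 to 0.0444).

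Leaving out lymphoma 14 took the lower calls among Hox genes to 9, against 29.3% of all genes, with 8 higher, against 30.8%. The lower calls gained were Hoxb2, Hoxc6 and Hoxc9. At least 2-fold lower were then 5 members, against 11.6% of all genes. Leaving out lymphomas 7 and 14, a choice made after seeing the data, gave 8 higher calls against 31.3% of all genes, 9 lower calls against 30.1%, and 4 at least 2-fold lower against 12.3%.

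The remaining members did not pass. Hoxb8, a gene of myeloid progenitors, averaged -0.05 ± 0.46, Hoxb9 -0.06 ± 0.80 and Hoxb5 0.02 ± 0.67 (SD, n = 18 each). In the Hoxc cluster, Hoxc5 averaged -0.22 ± 0.90 (n = 18), with lymphoma 1 lowest at -2.97, Hoxc8 0.04 ± 0.64 (n = 14), Hoxc10 0.13 ± 0.31 (n = 18) and Hoxc12 0.26 ± 0.49 (n = 17). In the Hoxd cluster, Hoxd1, which acts in pain-sensing neurons, averaged 0.12 ± 0.81 (n = 16) with lymphoma 7 highest at 2.71. Hoxd9 averaged 0.27 ± 0.73, Hoxd10 0.24 ± 0.88 and Hoxd13 -0.13 ± 0.48 (n = 18 each), Hoxd11 0.15 ± 0.38 (n = 16), and Hoxa11, a gene of forearm, kidney and uterus, 0.25 ± 0.53 (n = 17). Their limma adjusted p ran from 0.068 for Hoxc12 to 0.901 for Hoxb5. Hoxa11 passed without lymphoma 1 or 17 (limma adjusted p = 0.0393 and 0.033), and Hoxc12 without lymphoma 8 or 10 (0.04 and 0.0231).

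Lymphoma 14 carried much of the Hox variation. Of the 29 Hox genes with a value in every lymphoma, 12 (41.4%) lay at least 4-fold above the median of the other 17 lymphomas, against 10.1% of all 17001 genes with complete values. It was the highest of all 18 for 13 of the 29 (44.8%), against 16% of all genes. The 12 came from all 4 clusters: Hoxa5, Hoxa9, Hoxb2, Hoxb3, Hoxb5, Hoxb7, Hoxc6, Hoxc9, Hoxd4, Hoxd8, Hoxd9 and Hoxd10. The largest distances above that median were 7.44 for Hoxc9, 5.36 for Hoxc6 and 5.11 for Hoxd8, on the log2 scale. The 12 carried numbers from 2 to 10. The remaining members numbered 10 or lower ran from -0.80 for Hoxb8 to 1.68 for Hoxb9, with Hoxd1 at -0.62, Hoxc4 at -0.48 and Hoxc10 at -0.40. Low numbers thus also held members that were not high. For Hoxb8 a second probe, with 11 values and so not used, was at a log2 ratio of 0.96 in lymphoma 14. The probe used was at -0.76 there, so the Hoxb8 value is not settled. Members numbered 11 to 13 had distances of -0.03 for Hoxa11, -0.21 for Hoxa13, 0.27 for Hoxb13, 0.02 for Hoxc12, -0.52 for Hoxd12 and -0.32 for Hoxd13. Hoxd11 had no value in lymphoma 14. Within the Hoxb cluster the high values were not continuous, as Hoxb4 stood between Hoxb3 and Hoxb5 at a distance of 0.29. Hoxb6, between Hoxb5 and Hoxb7, was at 0.76 as a mean of 2 probes. These probes had log2 ratios of 2.87 and -0.0038 in lymphoma 14, so whether Hoxb6 was high there is not settled. This is 1 sample, and no test over samples applies to it. It is also the sample highest in the means of fibroblast, endothelium, progenitor and macrophage markers and lowest in T cell markers. Its progenitor markers (Kit, Cd34, Gata2 and others) averaged 1.38, against -2.18 to 0.27 in the other 17. Of these, 7 of 9 were above 0, from Ikzf2 at -2.29 to Cd34 at 3.85. Its macrophage markers averaged 1.41 against -3.66 to 1.17, with 5 of 8 above 0. The part of any of these in its Hox values was not tested.

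In lymphoma 7 the high members were fewer, at a share close to that of all genes, and came from several clusters. Its highest log2 ratios were 4.82 for Hoxd8, 2.71 for Hoxd1 and 2.49 for Hoxc9, followed by 1.87 for Hoxb6 and 1.42 for Hoxd4. Of the 29 complete Hox genes, 3 (10.3%) lay at least 4-fold above the median of the other 17, against 7.96% of all genes, and these were Hoxc9, Hoxd4 and Hoxd8. In this lymphoma Hoxa9 was at 0.06 above that median and Hoxb7 at 0.65 above it. Its fibroblast markers averaged -0.30 and its T cell markers -1.06, so it did not share the marker profile of lymphoma 14. In lymphoma 14, Hoxd1 and Hoxd3 were at -0.62 and 0.17 from the median of the others. In lymphoma 12, 1 of the 29 (3.45%), Hoxa2, was at least 4-fold above the median of the others, against 4.12% of all genes.

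**Figure D3:**
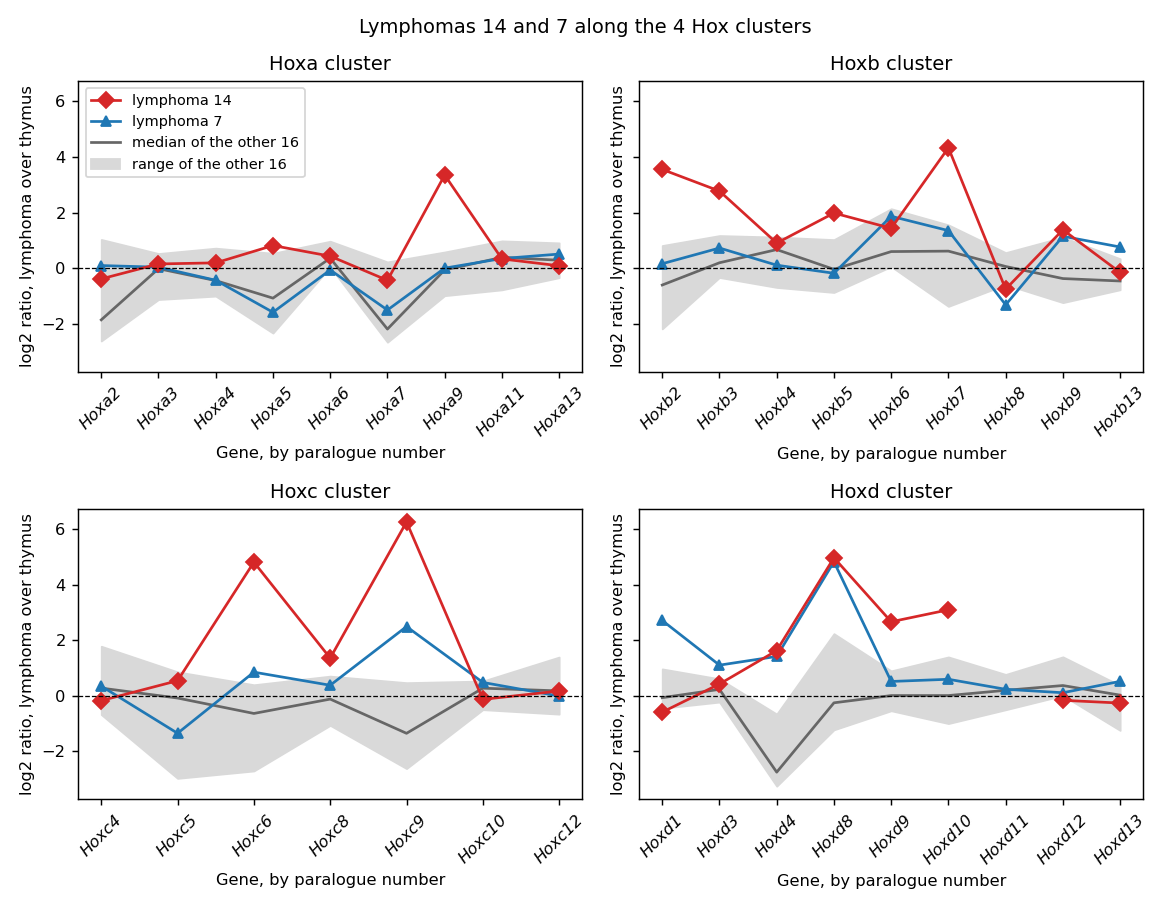
Log2 ratio of lymphoma over thymus (vertical axis) along each Hox cluster in order of gene number (horizontal axis), with lymphoma 14 in red, lymphoma 7 in blue, and the range and median of the other 16 lymphomas in grey. Both lymphomas lie above the grey range at Hoxd4, Hoxd8, Hoxc9, Hoxc6 and Hoxb9, and below it at Hoxb8. Lymphoma 14 alone lies above it at Hoxa9 and Hoxb7, among others.

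The Hox genes were set against the fibroblast and thymic epithelium marker means over lymphomas, in 58 relations of 29 genes with each list. For fibroblast markers, Hoxa5, Hoxb2, Hoxb5 and Hoxb7 passed two-sided permutation tests by both measures after adjustment over the 58. Pearson's r was 0.76 for Hoxa5 (adjusted permutation p = 0.00244), 0.83 for Hoxb2, 0.82 for Hoxb5 and 0.83 for Hoxb7 (adjusted permutation p = 0.00116 each). Spearman's rho was 0.72, 0.75, 0.75 and 0.67 in the same order (adjusted permutation p = 0.0201, 0.0136, 0.0136 and 0.0402). Without lymphomas 5 and 14, the farthest from the median of the markers, r was 0.63 for Hoxa5, 0.65 for Hoxb2, 0.70 for Hoxb5 and 0.68 for Hoxb7 (n = 16), and none passed (adjusted permutation p from 0.101 to 0.107). The passing of the test thus rests on those lymphomas.

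The lymphomas also fall into 2 sets by their macrophage markers, in which 7 (lymphomas 1, 2, 3, 5, 15, 17 and 18) were low. Within those 7, r with the fibroblast markers was 0.96 for Hoxa5, 0.88 for Hoxb2, 0.77 for Hoxb5 and 0.49 for Hoxb7. In this set lymphoma 15 lay apart, at a fibroblast mean of 0.70 against -2.51 to -1.43, and was highest in Hoxa5, Hoxb2 and Hoxb5. Its weight in these r was not tested. Within the other 11 without lymphoma 14 it was 0.59 for Hoxa5, 0.33 for Hoxb2, 0.56 for Hoxb5 and 0.32 for Hoxb7. The sign was thus kept within both sets, and these within-set values are given without a test. For Hoxc9 the pooled r was 0.40, and -0.24 without the same 2 lymphomas. For thymic epithelium markers, lymphomas 7 and 12 lie apart, so r was also taken over the other 16. For Hoxb4 the pooled r was -0.83 and rho -0.65 (adjusted permutation p = 0.00116 and 0.0477). Over the other 16 its r was -0.63 (permutation p = 0.00823, adjusted 0.107) and rho was -0.51 (permutation p = 0.047, adjusted 0.273).

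**Figure D4:**
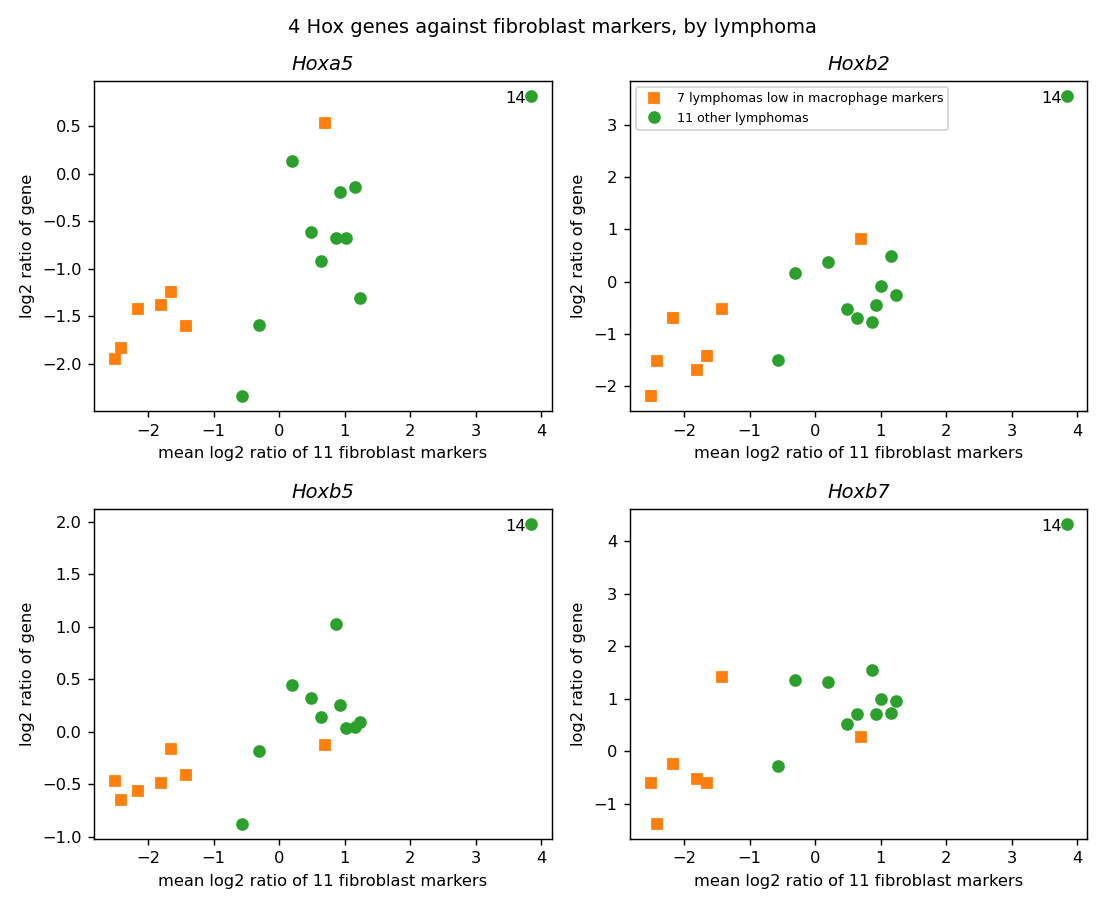
Log2 ratio of Hoxa5, Hoxb2, Hoxb5 and Hoxb7 (vertical axes) against the mean log2 ratio of 11 fibroblast markers (horizontal axes), 1 point per lymphoma, with the 7 lymphomas low in macrophage markers as orange squares and the 11 others as green circles. Lymphoma 14, at a marker mean of 3.84, is at the top right in each panel.

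Co-variation was described over pairs of members with complete values. Over 18 lymphomas the median r was 0.18 over 95 pairs within clusters and 0.17 over 311 pairs between clusters, and without lymphomas 7 and 14 these were 0.09 and 0.07. All pairs share the same arrays and reference. Hoxd4 and Hoxd8 had r = 0.87, and 0.37 without lymphomas 7 and 14. Hoxc6 and Hoxc9 had r = 0.82, and 0.21 without them. Hoxa5 and Hoxb2, on different chromosomes, had r = 0.80, and 0.84 without them. For Hoxc9, the member with the largest SD, the 5 genes outside the clusters with the highest r of 16972 were Prkg2 (0.93), Tmem200a (0.93), Etv4 (0.90), Chrna1 (0.90) and Bdnf (0.90). Without lymphomas 7 and 14 these r were 0.63, 0.55, 0.36, 0.21 and 0.37. Each was high in lymphoma 14, from 3.29 for Prkg2 to 5.56 for Chrna1.

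Of 3 non-coding transcripts named after Hox genes, Hoxaas2 was lower in lymphoma. It is named as an antisense RNA of the Hoxa cluster and lies between Hoxa2 and Hoxa3 in the RefSeq table, and the sources used here do not say whether the labelling kept strands apart. It averaged -1.07 ± 0.83 (SD, n = 18, limma adjusted p = 6.47e-05, below 0 in 17 of 18), from -2.24 through a median of -1.13 to 1.34 in lymphoma 12, the lymphoma that was also highest in Hoxa2. Over 18 lymphomas its r with Hoxa2 was 0.78, and 0.82 without lymphomas 7 and 14. Hoxaas3 averaged 0.10 ± 0.28 (n = 15, limma adjusted p = 0.308), and Hoxd3os1 averaged 0.58 ± 0.98 (n = 14, limma adjusted p = 0.0517), highest in lymphoma 14 at 2.74. Hoxd3os1 passed without any one of lymphomas 2, 4, 9, 11 and 12 (limma adjusted p from 0.0272 to 0.0488).

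The Hox cofactors of the TALE class, homeodomain proteins that bind DNA next to Hox proteins, moved in both directions. Of 9 listed, 8 were measured, 2 were higher, 4 lower and 2 not called, with a median of -0.09. Over all genes 29.9% were higher and 27.9% lower, with a median of 0.05. Meis2 ran from -4.42 in lymphoma 2 through a median of -2.31 to 1.09 in lymphoma 7, and lymphomas 7 and 12 were above 0. It averaged -2.21 ± 1.46 (SD, n = 18), 4.64-fold lower (limma adjusted p = 8.66e-06). Meis1, the partner of Hoxa9 in leukaemia and in blood stem cells, averaged -0.82 ± 0.95 (limma adjusted p = 0.00257), with lymphoma 14 highest at 1.81 and lymphoma 12 next at 0.98. With 1 probe per gene Meis1 was -0.33 and did not pass (limma adjusted p = 0.0911), nor did it without the 7 lymphomas low in macrophage markers (0.0996).

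Pbx4 was the cofactor highest in lymphoma, at 1.30 ± 1.03 (SD, n = 18), 2.46-fold higher (limma adjusted p = 7.59e-05), and above 0 in all lymphomas except 14 and 7, at -1.48 and -0.36. Pbx3, a partner of Hoxa9 in leukaemia, averaged 0.83 ± 0.63 (limma adjusted p = 6.83e-05, above 0 in 17). Pbx2 averaged -0.66 ± 0.43 (limma adjusted p = 2.15e-05, below 0 in 17), and Pknox1 -0.29 ± 0.44 (limma adjusted p = 0.0246). With 1 probe per gene Pbx2 was -0.07 (adjusted p = 0.75), and its call was lost. Pknox1 did not pass with array weights (0.0546), without lymphomas 7 and 14 (0.0767), or without lymphomas 7, 12 and 14 (0.106). Meis3 averaged 0.34 ± 0.73 (limma adjusted p = 0.0866, and 0.0108 without lymphoma 14), and Pknox2 0.12 ± 0.20 (limma adjusted p = 0.123).

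**Figure D5:**
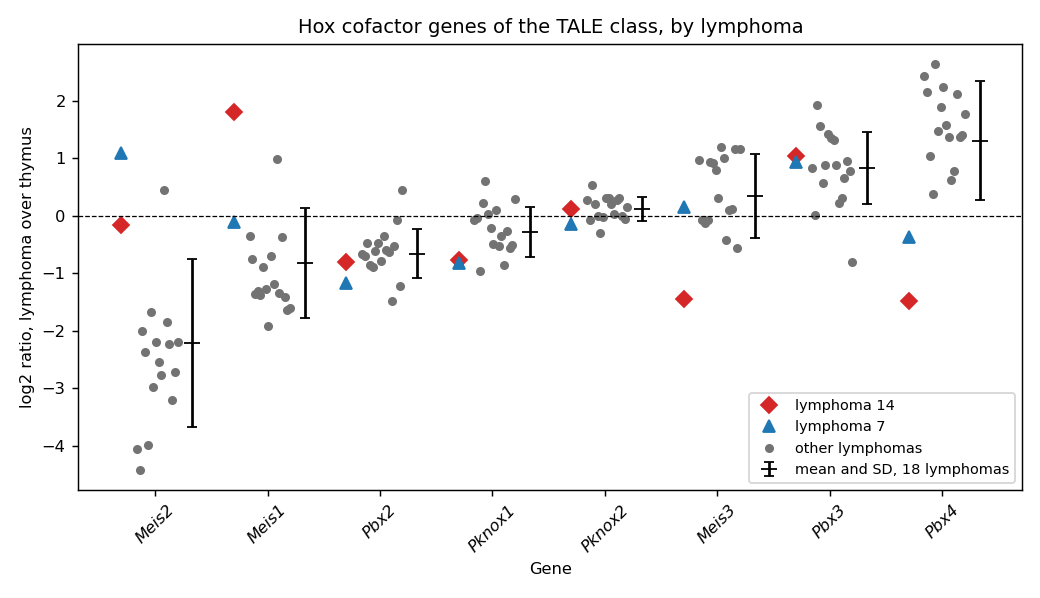
Log2 ratio of lymphoma over thymus (vertical axis) of the 8 measured Pbx, Meis and Pknox genes in each lymphoma, with lymphoma 14 as red diamonds, lymphoma 7 as blue triangles, the other 16 as grey points, and the mean with its SD over all 18. Meis2 lies lowest with a mean of -2.21, and Pbx4 highest with a mean of 1.30.

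Genes that switch Hox genes on or keep them off changed by less than 2-fold. For both lists below, the shares over all genes were 29.9% higher and 27.9% lower. Among 17 activators, the Mll (Kmt2a) complex, its partners and the caudal factors, 7 were higher, 2 lower and 8 not called, with a median of 0.15. The 4 activators with the smallest adjusted p were Wdr5 at 0.65 ± 0.43, Dot1l at 0.49 ± 0.30, Mllt1 at 0.47 ± 0.32 and Kmt2a itself at 0.57 ± 0.43 (SD, n = 18, limma adjusted p at most 0.000122). The 2 lower were caudal factors, Cdx2 at -0.83 ± 0.74 and Cdx1 at -0.20 ± 0.29 (limma adjusted p = 0.000295 and 0.0325). Cdx4 was not called, at 0.15 ± 0.59. Polycomb proteins keep Hox clusters silent. Of 18 measured genes listed for Polycomb repression, which include Kdm6a and Kdm6b, demethylases that oppose it, 6 were higher, 3 lower and 9 not called, with a median of 0.07. Kdm6a and Kdm6b were among the 9. Asxl1 averaged 0.75 ± 0.34 and Ring1 0.29 ± 0.21, while the chromodomain genes Cbx8 and Cbx7 averaged -0.59 ± 0.37 and -0.92 ± 0.89 (SD, n = 18, limma adjusted p at most 0.000598). Without the 7 lymphomas low in macrophage markers, Ring1 and Cbx7 did not pass (adjusted p = 0.0837 and 0.0605).

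Of 16 measured genes that Hoxa9 and its partners are known to drive in leukaemia, 3 were higher, 8 lower and 5 not called, with a median of -0.61. The shares over all genes were again 29.9% higher and 27.9% lower. Eya1, a phosphatase and transcriptional coactivator, averaged -2.22 ± 1.17, 4.67-fold lower (SD, n = 18, limma adjusted p = 5.98e-07). Flt3, a receptor of early progenitors, averaged -0.70 ± 0.42 (limma adjusted p = 7.5e-06). Igf1r, a growth factor receptor, averaged 1.37 ± 0.98, 2.58-fold higher (limma adjusted p = 2.52e-05). With 1 probe per gene Eya1 was -0.63, 1.55-fold lower (adjusted p = 0.000244), and Igf1r was 0.38 and did not pass (adjusted p = 0.261). This list and the 2 before it describe these genes only and were not tested as sets.

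The genes beside the Hox clusters were counted in the same way. Of 44 measured flanking genes, 14 were higher, 16 lower and 14 not called, near the shares over all genes of 29.9% higher and 27.9% lower. Beside the Hoxa cluster 7 of 10 were lower and 2 higher (median -0.42), with Snx10 at -1.89 ± 1.29 and Nfe2l3 at -1.35 ± 0.63 (-2.96 with 1 probe per gene), while Evx1, the homeobox gene next to Hoxa13, was higher at 0.54 ± 0.34 (SD, n = 18). Beside the Hoxb cluster 7 of 14 were lower and 5 higher, and beside the Hoxc cluster 7 of 11 were higher and 4 not called, with Copz1 at 0.89 ± 0.40. Beside the Hoxd cluster 2 of 9 were lower and 7 not called. Evx2, the homeobox gene next to Hoxd13, averaged 0.05 ± 0.67 there.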

How the data were processed

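The deposited values are log10 ratios for 41175 probes, 1 value per lymphoma. The sources used here state neither base nor direction, and base 10 was inferred from the habit of Agilent software. Trizol RNA was treated with DNase and each sample was dye-swapped, per the labels. The sources used here do not give the normalization or how the dye-swap pair was combined. Multiplying by 3.3219 gave log2 ratios, and nothing was rescaled. The platform annotation names 1 gene for 31700 probes. Probes with at least 14 of 18 values were averaged per gene. limma 3.58.1 (R 4.3.3) tested each mean ratio against 0 by an intercept-only fit with eBayes, and p-values were adjusted by Benjamini-Hochberg over 18147 genes at a threshold of 0.05. A gene at least 2-fold lower or higher passed and had a mean log2 ratio of at least 1 in size. The fit was tested on simulated data. Correlations used permutation tests with 100000 resamples in Python 3.11.15 (NumPy 2.4.6). Errors are SD over lymphomas.

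The members, gene lists, tests and alternatives were chosen with earlier results of these data known. Described in depth, by rule, were members called and at least 2-fold changed, the 4 with the largest SD, Hoxa9 and Hoxa3. Also named were up to 4 genes of each other list by adjusted p, and every measured cofactor. Hoxa5, Hoxb2, Hoxb5, Hoxb7, Evx2, the other called members and the genes named beside lymphomas 14 and 7 were taken up after their values were seen. Alternatives were quantile, median and scale normalization, other limits on missing values, 1 probe per gene, array weights, a robust prior and leaving lymphomas out. Promoters come from RefSeq (GRCm38.p6).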

Additional observations from a re-analysis of the deposited data

How the results depend on the processing

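Leaving out each lymphoma in turn gave 7 to 10 Hox genes higher, 5 to 9 lower and 3 to 5 at least 2-fold changed. The last count was 5 without lymphomas 7, 12 and 14 together and 0 when the ratios were read as base 2, since Hoxd4 is then 1.53-fold lower. Without the 2 lymphomas farthest from the median of the markers, 0 genes passed both correlation tests for fibroblast markers, where 4 passed over all 18, and 0 for thymic epithelium markers, where 1 (Hoxb4) passed. No called Hox gene changed sign under any alternative run. Under quantile normalization and scaling Hoxb7 was also called (adjusted p = 0.0264 and 0.0336), while centring changed no count. With 1 probe per gene Hoxa3 was also lower (0.0285) and Hoxc10 higher (0.0418). Each had 2 probes with 18 values, of which the lower-numbered was taken. The probes not taken averaged 0.40 for Hoxa3 and 0.05 for Hoxc10. Array weights called Hoxb2, Hoxc6 and Hoxc9 lower and lost Hoxb3 (0.0607). Without the 7 lymphomas low in macrophage markers, Hoxa13, Hoxa4, Hoxb13, Hoxb3 and Hoxc4 lost their calls (adjusted p from 0.121 to 0.216), and Hoxa11 and Hoxb7 gained one (0.00634 and 0.00953). The causes were not tested. No paired analysis was possible because all 18 lymphomas form 1 group.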
